A study of Mus musculus with 24 samples.

Results

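Spheres grown from ErbB2 mammary tumours were compared with and without Nutlin-3, across all 13038 genes that the authors' deposited table of this comparison lists, out of 14963 listed in at least 1 of the 4 tables used here. Nutlin-3 is a small molecule that occupies the p53-binding pocket of Mdm2. Both groups came from FVB/Hsd mice aged 12 to 15 weeks that carried a mutated ErbB2 transgene under the MMTV promoter, which is active mainly in mammary epithelium. Tumour cells were passaged as floating spheres, or mammospheres, in serum-free medium with EGF, FGF, insulin and hydrocortisone, were never infected with a virus, and were taken at passages 6 to 7, 72 h after plating. The treated group received 2.5 µM Nutlin-3 for 72 h (3 libraries), and the deposited table sets it against 3 of the 5 untreated tumour libraries, without saying which. The labels name no vehicle for the untreated group, so effects of the compound and of any solvent cannot be told apart. Of the other groups among the 24 libraries, all from mice aged 7 weeks, 3 are used below: spheres from Trp53 knockout mice (2 libraries, passages 6 to 7, not infected) and wild-type spheres carrying an empty vector (3 libraries, passage 3) or Myc-ER (3 libraries, passage 3).

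In unstressed cells Mdm2 ubiquitinates p53 and keeps its level low. When the pocket of Mdm2 is filled, p53 accumulates and binds response elements in its target genes, among them Mdm2 itself, the CDK inhibitor gene Cdkn1a and genes for death receptors and BCL2 family proteins. The Cdkn1a product p21 inhibits cyclin-dependent kinases, leaving RB family proteins bound to E2F factors, and the p130 or p107 form of the DREAM complex silences genes of S phase and mitosis through E2F and CHR elements in their promoters.

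Levels are the authors' mean normalised read counts over the libraries of a group, 3 for each group except the knockout, which has 2, and the untreated tumour group in its table against wild-type spheres, which has 5. The table holds no value per library, so no spread can be given, and a gene is said to have risen or fallen only where the authors' deposited adjusted p, from a DESeq2 analysis of treated and untreated cultures of each tumour as pairs, was below 0.05. Effects are log2 ratios of the treated to the untreated mean after adding 1 to both. The means are not divided by gene length, so levels are compared between groups and not between genes. Summed over the listed genes the means came to 36651122 untreated and 38272670 with Nutlin-3, and the median effect over all genes was 0.03. Bulk counts do not separate fewer cells of a type from less RNA per cell.

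Markers of mammary epithelium were listed only in part. Of 19 luminal markers 7 were listed, with Cd24a at 1760 untreated and 1282 with Nutlin-3 and Krt18 at 231 and 201. Epcam, Cdh1, Krt8, Krt19, Elf5 and Foxa1 were not among the listed genes, which the file header limits to means above 10. Of 13 basal and myoepithelial markers 6 were listed, with Lama3 at 908 and 829 and without Krt5, Krt14 and Krt17. Fibroblast markers were listed for 15 of 16 genes, with means of 78988 untreated and 80392 with Nutlin-3 for the collagen gene Col3a1. The intermediate filament gene Vim, which is not among those 16 markers, had means of 215331 and 210273. In the authors' table of untreated tumour against wild-type spheres, 8 luminal markers summed to 2164 in tumour and 3582 in wild-type spheres, while 16 fibroblast markers summed to 655464 and 901035. Erbb2 itself had a mean of 834 untreated and 879 with Nutlin-3, and in that other table it was lower in tumour than in wild-type spheres, with an effect of -1.02; how reads of the transgene were counted was not tested. None of the 13 listed luminal and basal markers passed the authors' DESeq2 test of Nutlin-3, and 0 had an unadjusted p below 0.05. The cultures are therefore called tumour spheres here, with no epithelial name.

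**Figure D1:**
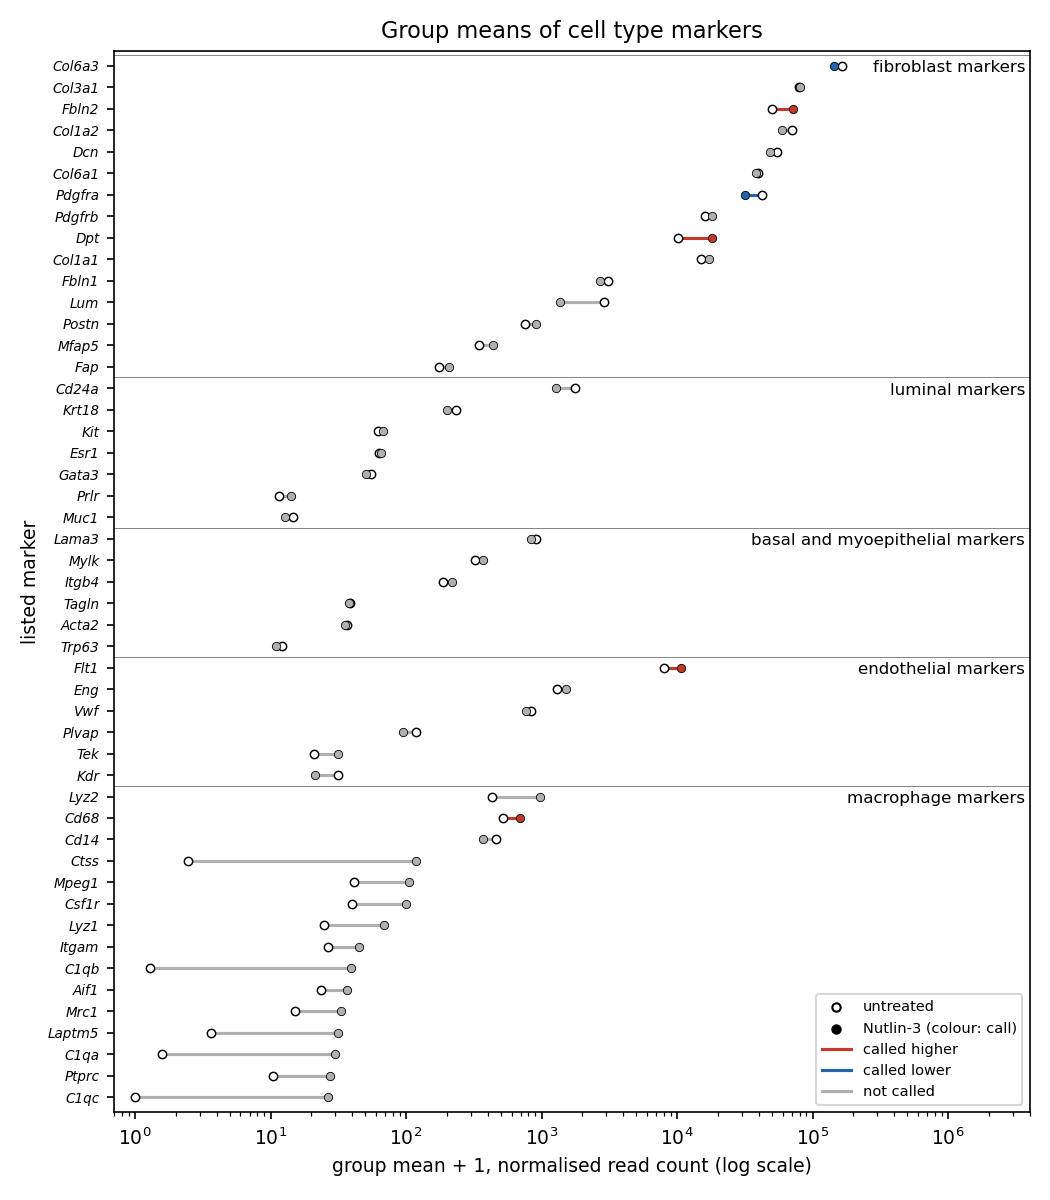
Group means plus 1 of the listed cell type markers in untreated (open circles) and Nutlin-3-treated (filled circles) tumour spheres, on a log axis, coloured by the authors' call. Fibroblast markers are at the top, with Col6a3 at 163886 and 143399, and epithelial markers are listed only in part. Most macrophage markers have low means that are larger with Nutlin-3 without being called.

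To see what the compound changed, all listed genes were read first. With Nutlin-3, 1005 genes were higher, 7.71% of those listed, and 917 were lower, 7.03%. The lower genes moved further: 190 of them fell at least 2-fold, 20.7%, against 77 of the higher genes, 7.66%. The median size of the effect was 0.54 among lower and 0.41 among higher genes. Lower genes also had smaller means over both groups, with a median of 1267 against 2268, and sizes were not compared at equal levels. Called genes whose mean over both groups reached 1668, the median of called genes, were ranked by effect. Their 12 largest decreases were Aspm, Mki67, Ccna2, Anln, Ccnb1, Top2a, Kif11, Prc1, Kif20b, Cenpf, Ckap2l and Foxm1, between -1.41 and -1.25. Each of these encodes a cell division protein or, in the case of Foxm1, a transcription factor for such genes. The 12 largest increases in that range held the p53 targets Mdm2, Trp53inp1 and Btg2, the lipid transport genes Abca1 and Pltp, the lysosomal protease gene Ctsd, Gas6, a ligand of TAM receptors (1.51), the glutamate receptor subunit gene Gria3 (1.15), the carboxypeptidase-like gene Cpxm1 (1.04), the neuronal calcium sensor gene Hpca (1.02) and the cornified envelope gene Ivl (1.01). The largest was Prl2c3, a proliferin gene of the prolactin family, with means of 1219 untreated and 9612 with Nutlin-3 and an effect of 2.98. Prl2c3 has near-identical neighbouring copies, so the reads may not belong to it alone.

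**Figure D2:**
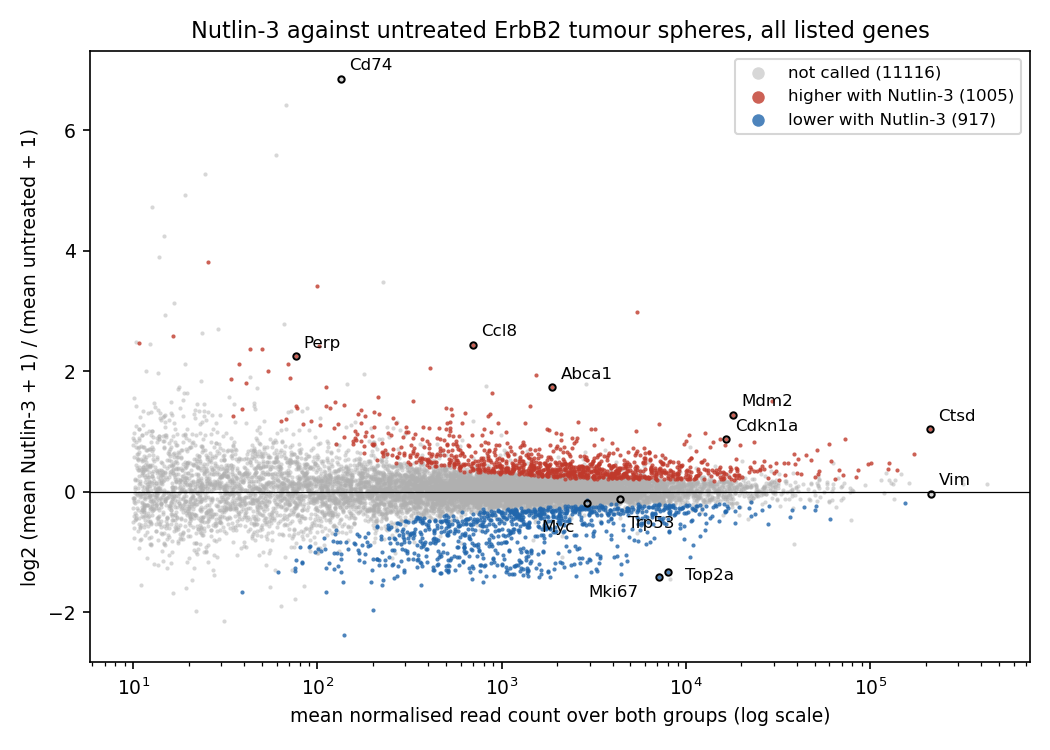
Effect of Nutlin-3 (log2 ratio of group means plus 1) against the mean over both groups (log axis) for the 13038 listed genes, with called genes in colour. Called decreases reach a dense band near -1.4 that holds Mki67 and Top2a, called increases are spread more widely, and Cd74 has the largest effect of the plot without being called.

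The p53 targets rose as a group, with 37 of 56 listed members higher (66.1%), 2 lower and 17 not called, and a median effect of 0.40. The genes were sorted by what their products do.

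Feedback regulators of p53 were split. Mdm2 (GRCm38 chr10:117688875-117710758) had a mean of 10486 in untreated spheres and 25473 with Nutlin-3, a 2.43-fold ratio, with an adjusted p of 1.75e-29 in the authors' deposited table. Trp53inp1, which promotes p53 phosphorylation, rose from 4477 to 9739 and Ccng1, which recruits the PP2A phosphatase to Mdm2, from 16910 to 30006. Ppm1d, the gene of the Wip1 phosphatase that removes activating phosphates from p53, fell from 2151 to 1670, an effect of -0.36 with an adjusted p of 0.0192 in the authors' deposited table. Mdm4, the partner of Mdm2 that Nutlin-3 binds poorly, had means of 1878 and 2081 and was not called. Trp53 itself (chr11:69580348-69591873) had means of 4569 untreated and 4191 with Nutlin-3 and was not called either, with an adjusted p of 0.344 in the authors' deposited table. RNA levels say nothing of the amount of p53 protein, which was not measured here.

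Genes for cell cycle arrest rose in 7 of 8 cases. Cdkn1a (chr17:29090979-29100722) had means of 11731 and 21435, an effect of 0.87, with an adjusted p of 2.42e-19 in the authors' deposited table. Larger effects were seen for Ptprv, a tyrosine phosphatase locus that RefSeq annotates as a transcribed pseudogene (633 to 2423, effect 1.94), for the G2 arrest gene Rprm at low means of 17.7 and 64.4 (1.81), for the antiproliferative gene Btg2 (1151 to 2357) and for the polo-like kinase gene Plk2 (1430 to 2768). Sfn, the gene of 14-3-3 sigma and an epithelial gene, had means of 14.2 and 11.4 and was not called.

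Of 15 death genes 12 rose. The largest effect was that of Perp, a tetraspan membrane protein gene (25.8 to 126, effect 2.25). The death receptor gene Fas rose from 364 to 903, and the BH3-only gene Pmaip1, which encodes Noxa, from 315 to 698. The receptor genes Eda2r and Tnfrsf10b, the nuclease gene Aen and Lrdd, the PIDD gene, rose by between 0.64 and 0.81. The BH3-only gene Bbc3, which encodes Puma (509 to 675), and the mitochondrial pore gene Bax (4680 to 5905) rose by 0.41 and 0.34, and Bax had the smallest effect of the 12. Apaf1, Siva1 and Dram1 were not called, with Apaf1 at 1971 and 2167. Outside the p53 targets, the BCL2 family had 2 called members, with Bcl2l11, the Bim gene, higher (323 to 471) and Bok lower (2100 to 1388). The other 8 of 10 listed members were not called, including the survival gene Mcl1 at 9934 and 10793. With 1 of 10 in each direction, the family was near the shares of all genes, 7.71% higher and 7.03% lower.

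Among DNA repair targets, Ercc5 (1429 to 2142) and the translesion polymerase gene Polk (1302 to 1711) rose, whereas Polh, the polymerase gene that copies past ultraviolet lesions, fell from 754 to 520, and 3 of 6 were not called. Metabolic targets rose in 4 of 11 cases, with Aldh4a1, Gdf15, Fuca1 and Sesn2 at effects of 0.61, 0.51, 0.51 and 0.22. All 9 listed genes of other function rose, led by Ak1 (7108 to 12376), the heparan sulphatase gene Sulf2 (11990 to 20532), Cdc42bpg and the Akt inhibitor gene Phlda3 (4196 to 6572).

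**Figure D3:**
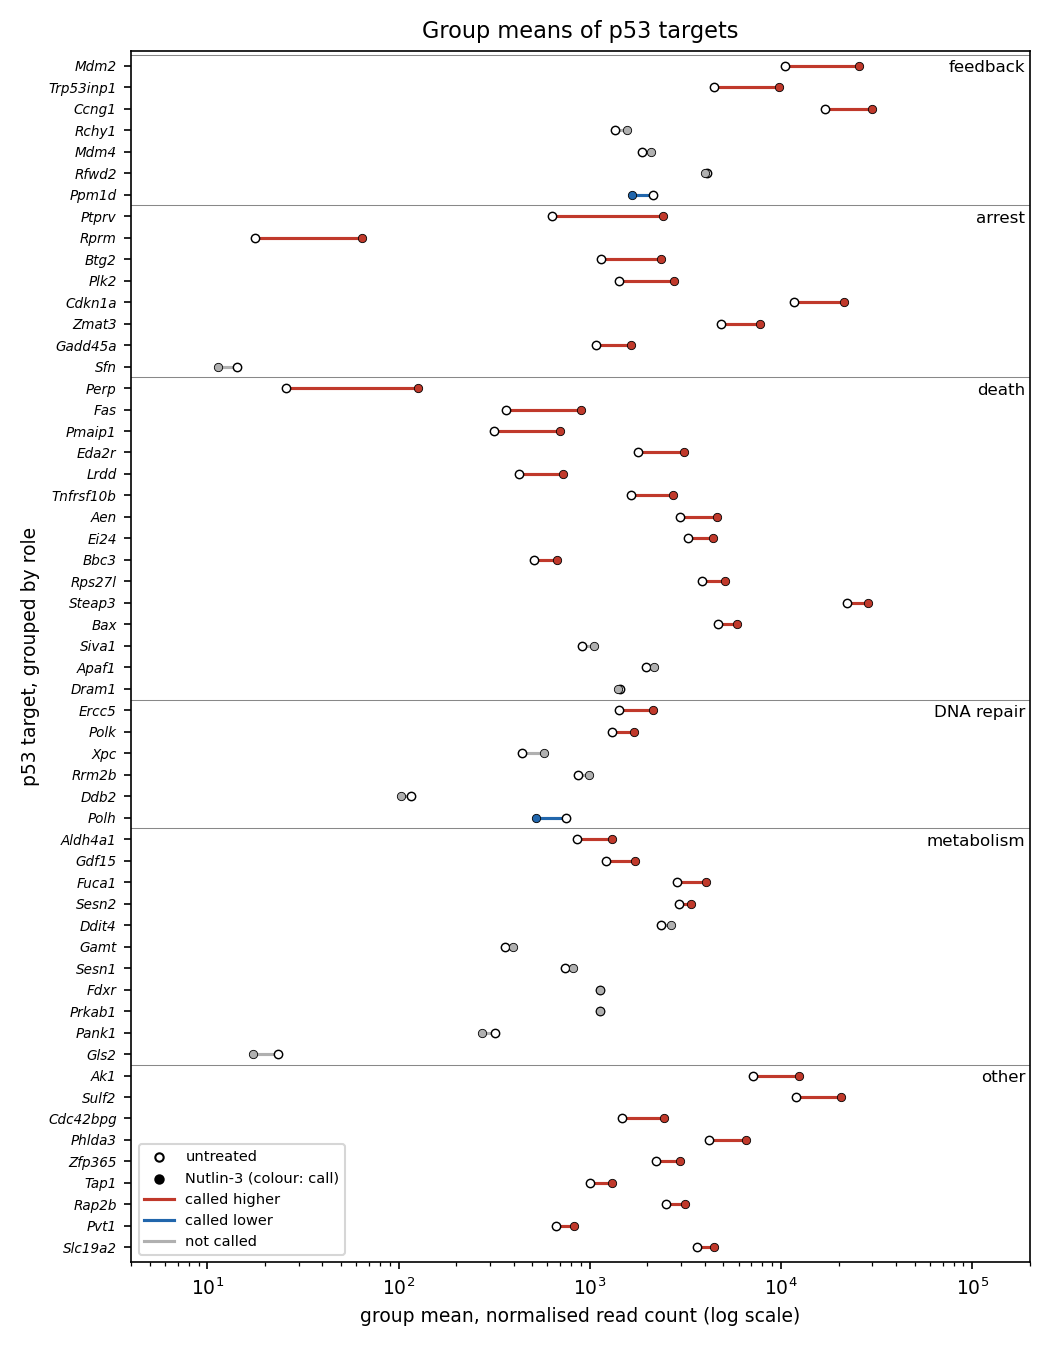
Group means of the 56 listed p53 targets in untreated (open circles) and Nutlin-3-treated (filled circles) tumour spheres on a log axis, grouped by role. Red lines mark the 37 called higher and blue lines the 2 called lower, Ppm1d and Polh.

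Cell division genes fell almost without exception. Of 110 mitosis genes 105 were lower (95.5%) and none was higher, with a median effect of -1.17. All 13 mitotic kinases fell, among them Bub1 (2022 to 766), Aurkb (1588 to 612), Bub1b (-1.37) and Pbk (-1.33). Of 34 kinetochore genes 31 fell, with Cenpm (381 to 140, effect -1.44), Nuf2, Casc5 and Ska1 in front, and Zwint, Cenpc1 and Cenpt were not called. All 3 passenger complex partners of Aurora B fell, Cdca8 (-1.40), Birc5 (-1.27) and Incenp (-0.98). The 13 mitotic kinesins fell, from Kif14 (1168 to 413, effect -1.50) to Kifc1 (-0.90). In the checkpoint and anaphase group 12 of 13 fell, including the separase gene Espl1 and the APC/C ubiquitin-conjugating enzyme gene Ube2c, and Bub3 did not pass the test. Spindle and cytokinesis genes fell in 17 of 18 cases, with Cep55 at -1.45 and Aspm at -1.41, and Numa1, a nuclear protein in interphase, was not called (6837 and 6496). All 16 genes of chromosome structure fell, with Mki67 going from 10352 to 3897 and topoisomerase II gene Top2a from 11426 to 4527, the latter with an adjusted p of 9.99e-69 in the authors' deposited table. 

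DNA replication genes fell in 46 of 51 cases (90.2%), none rose, and the median effect was smaller, at -0.73. Origin licensing genes fell in 12 of 15 cases, led by Mcm5 (3433 to 1488), Cdc6 (853 to 382), Mcm6 (5706 to 2715) and Gmnn, and the origin recognition genes Orc3, Orc4 and Orc5 were not called. Of 9 origin firing genes 8 fell, with Mcm10 (-1.33) and Ticrr (-1.30) beyond any licensing gene. At the fork 23 of 24 fell, including Clspn, Pole and Pola1, and all 3 chromatin assembly genes fell. Nucleotide supply divided in the same table: all 7 genes for deoxynucleotides fell, such as the thymidine kinase gene Tk1 (1687 to 650) and the ribonucleotide reductase genes Rrm2 (4073 to 1870) and Rrm1 (7052 to 3974), whereas only 3 of 10 genes for purine and pyrimidine bases did. Repair by recombination fell in 16 of 19 cases (Rad54l -1.31, Exo1 -1.30, Bard1 -1.25) and the Fanconi pathway in 7 of 11, with Fancd2 (714 to 290) foremost and Fance not called.

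The regulators of the cycle did not move as a block. Cyclins of S phase and mitosis fell, namely Ccna2 (3675 to 1389), Ccnb2, Ccnb1, Ccne2, Ccnf and, least, Ccne1 (1140 to 866). The D-type cyclin gene Ccnd2 rose from 8601 to 12654, and Ccnd1 (49803 and 53751) and Ccnd3 were not called. Of 11 kinase and phosphatase genes 10 fell, most of all Cdc25c, the phosphatase gene that activates Cdk1 (544 to 185, effect -1.56), then Cdk1 (3598 to 1682), and Cdk4 was not called (14096 and 12884). The CDK inhibitors went both ways. Cdkn1a and the p15 gene Cdkn2b (413 to 717) rose, whereas Cdkn2d, Cdkn2c and the p27 gene Cdkn1b (1311 to 846) fell, and Cdkn2a, whose Arf product inhibits Mdm2, had means of 1031 and 1014. Among the factors upstream, E2f7 (612 to 280) and E2f8 fell with the dimer partners Tfdp1 and Tfdp2, while E2f1 to E2f6 were not called. The p107 gene Rbl1 fell (1650 to 854) and the p130 gene Rbl2 was not called (1906 and 1981). Mybl2 (-1.34), Foxm1 (-1.25), Lin9 (-1.07) and Lin54 (-0.54), which act on mitotic promoters, fell. Chromatin genes followed in 13 of 16 cases, with Hmgb2, Uhrf1, Suv39h2 and the lamin gene Lmnb1 (1889 to 898) between -1.16 and -1.07, and Ezh2 at -0.84, while Ezh1, its paralogue, rose from 999 to 1268 and Lmna was not called (29158 and 29521).

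**Figure D4:**
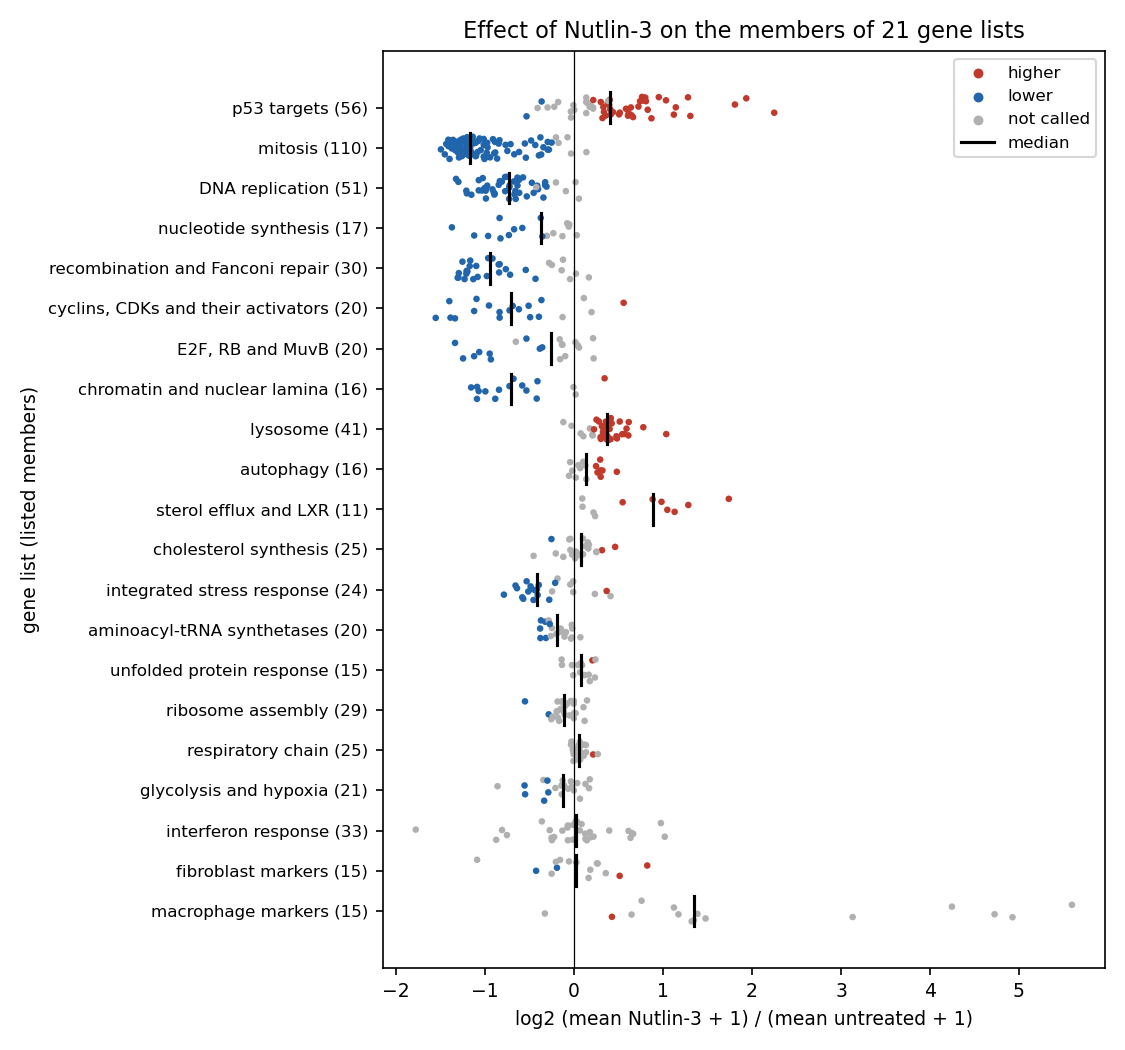
Effect of Nutlin-3 (log2 ratio of group means plus 1) on each listed member of 21 gene lists, with the call by colour and the median as a black bar. Mitosis and DNA replication lie to the left of 0 with medians of -1.17 and -0.73, p53 targets and lysosome genes to the right with 0.40 and 0.37, and macrophage markers spread to 5.60 with 1 of 15 called.

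Promoters were read for the elements named above, because both directions of change have known DNA elements. RefSeq promoter windows (GRCm38.p6, 250 bases before to 50 after an annotated start) were found by symbol for 9764 of the 13038 genes, 12555 windows in all, and both strands were searched. The CHR, TTTGAA or TTCGAA, occurred in 13.8% of all windows, in 25% of those of genes that fell, in 10.8% of those of genes that rose and in 63.7% of the 102 windows of the mitosis genes. The E2F motifs TTTGGCGC, TTTCCCGC, TTTCGCGC and TTTGCCGC occurred in 3.72% of all windows, 12.3% of those of genes that fell, 2.25% of those of genes that rose, 10.8% of mitosis windows and 31.4% of DNA replication windows. CCAAT was in 37.7% of all windows, 47.3% of those of genes that fell and 34.9% of those of genes that rose. It was in 62.7% of mitosis windows and 54.9% of DNA replication windows. The p53 half-site consensus, 10 letters long, was in 6.94% of all windows and in 25% of those of the p53 targets. It was in 7.53% of the windows of genes that fell and 7.16% of those of genes that rose. Overlapping matches were kept, and a window can hold several elements. The shares are counts of letters, with no test, and a match is not a bound site.

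Stretches ending 1 base before an annotated start are shown for 7 genes named above, 2 that rose and 5 that fell. Each match of the 1 motif named for that gene is in capitals, to let the elements be seen in place. The annotated start need not be the outermost start of the gene: of 7720 genes with 1 window, the 2 were the same for 4113. The Cdc6 stretch lies inside the RefSeq span of its gene (chr11:98907709-98923942). The Mki67 and Top2a stretches partly overlap theirs (chr7:135689784-135716450 and chr11:98992947-99024199). Mdm2 and Cdkn1a carry p53 half-sites (for Cdkn1a at the more upstream of its 2 annotated starts), Top2a, Mki67 and Kif11 carry CHRs, and Mcm6 and Cdc6 carry E2F motifs.
Mdm2, chr10:117710759-117710958, reverse strand: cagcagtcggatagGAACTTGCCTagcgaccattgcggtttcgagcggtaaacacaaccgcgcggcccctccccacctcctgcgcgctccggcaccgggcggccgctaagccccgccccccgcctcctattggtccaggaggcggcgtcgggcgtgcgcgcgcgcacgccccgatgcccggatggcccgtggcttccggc
Cdkn1a, chr17:29090879-29090978, forward strand: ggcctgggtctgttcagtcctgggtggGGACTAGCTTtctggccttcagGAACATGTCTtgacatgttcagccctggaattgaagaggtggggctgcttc
Top2a, chr11:99024190-99024389, reverse strand: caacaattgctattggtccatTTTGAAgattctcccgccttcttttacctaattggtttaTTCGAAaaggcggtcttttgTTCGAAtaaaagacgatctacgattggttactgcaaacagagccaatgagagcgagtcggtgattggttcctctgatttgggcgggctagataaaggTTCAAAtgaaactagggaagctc
Mki67, chr7:135716380-135716509, reverse strand: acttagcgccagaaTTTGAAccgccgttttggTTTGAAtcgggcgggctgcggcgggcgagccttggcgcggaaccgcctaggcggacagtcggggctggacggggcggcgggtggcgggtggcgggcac
Kif11, chr19:37376322-37376381, forward strand: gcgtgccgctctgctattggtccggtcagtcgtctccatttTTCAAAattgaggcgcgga
Mcm6, chr1:128359706-128359835, reverse strand: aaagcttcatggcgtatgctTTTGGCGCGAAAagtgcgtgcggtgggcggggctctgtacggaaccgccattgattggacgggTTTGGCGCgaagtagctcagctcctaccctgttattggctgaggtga
Cdc6, chr11:98908001-98908150, forward strand: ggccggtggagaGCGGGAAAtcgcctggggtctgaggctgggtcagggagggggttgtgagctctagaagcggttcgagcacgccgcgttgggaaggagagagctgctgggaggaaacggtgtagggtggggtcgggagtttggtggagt
In Top2a 4 CHR matches begin between 179 and 23 bases before that annotated start. In Mcm6 a pair of E2F matches on opposite strands share letters and form a longer run of capitals.

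Lysosome genes rose in 34 of 41 cases (82.9%) and none fell, with a median effect of 0.37. Proteases rose in 6 of 7 cases. The cathepsin D gene Ctsd, a major lysosomal aspartic protease gene, went from 138549 to 284140, an effect of 1.04 with an adjusted p of 2.62e-19 in the authors' deposited table, and Ctsh (971 to 1666), Ctsz and Ctsb (105861 to 147839) followed, while Ctsl was not called (140880 and 129557). Of 19 glycan and lipid hydrolases 17 rose, by between 0.22 (Ppt1) and 0.61, with Glb1, the gene of lysosomal beta-galactosidase (5891 to 9017), Man2b1 and Neu1 at the top. Of 15 membrane proteins, carriers and pump subunits 11 rose, led by the calcium channel gene Mcoln1 (2558 to 3787) and the cholesterol carrier gene Npc2, and Lamp2 was not called (32299 and 36531). Autophagy genes rose in 7 of 16 cases (43.8%, against 7.71% of all genes), such as the cargo receptor gene Sqstm1 (25836 to 36047). The lysosomal regulators Tfeb and Tfe3 were not called. Of the 34 lysosome genes that rose, 5 exceeded a 1.5-fold ratio, and of the 7 autophagy genes none did.

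In the list of sterol efflux genes and targets of the sterol receptor LXR, 7 of 11 listed genes rose (median 0.88): the cholesterol exporter genes Abca1 (866 to 2894, effect 1.74) and Abcg1 (125 to 306), Smpdl3a, the transfer protein gene Pltp (1979 to 4092), Apoe (8533 to 16864), the lipase gene Lpl (10705 to 19744) and Mylip. The receptor genes Nr1h2 and Nr1h3 and Srebf1 were not called. Of 25 cholesterol synthesis genes 2 rose, Tm7sf2 and Hsd17b7, 1 fell, Lss, and 22 were not called, among them Hmgcs1 (17605 and 19594). Fatty acid synthesis had 1 of 11 genes higher, Scd2 (9.09%), and cholesterol synthesis 8.0%, both near the 7.71% of all genes.

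Several of these genes are also strongly expressed by macrophages, and macrophage markers had larger means with Nutlin-3, nearly all without a call. Of 20 such markers 15 were listed, 14 of them had a larger mean with Nutlin-3, and the summed means were 1587 untreated and 2680 treated. Only Cd68 passed the test (515 to 692), 6.67% of those listed against the 7.71% of all genes. The complement genes C1qa, C1qb and C1qc had untreated means of 0.574, 0.282 and 0 and treated means of 28.9, 38 and 25.5. Ctss had 1.45 and 118. The authors' mean of paired log2 fold changes was 2.29, 2.36 and 2.09 for the complement genes and 2.87 for Ctss. Whether such means rest on few of the treated libraries or on all cannot be told without values per library. Cd14 had a smaller mean with Nutlin-3 (462 and 367), and Adgre1, Tyrobp, Fcer1g, Cx3cr1 and Fcgr3 were not listed. Their part in the lysosome, sterol efflux and chemokine results was not tested. Other myeloid genes, named after their values were seen, were the lipid phosphatase gene Inpp5d (13.3 to 73.2) and the lectin receptor gene Clec7a (2.49 to 48.3), which rose, and the inhibitory receptor gene Lilrb4 (7356 and 8528), which was not called.

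In the list of the integrated stress response, in which the factor Atf4 drives genes for amino acid synthesis and uptake, 16 of 24 genes were lower (66.7%), 1 was higher and 7 were not called. With an added 1.5-fold limit 3 of the 16 were left. All 9 amino acid and folate pathway enzymes fell: Shmt2 most (12320 to 7131, effect -0.79), then Psph, Asns (11735 to 7899), Gpt2, Psat1, Aldh18a1, Pck2, Phgdh and Mthfd2 (-0.40). Of 5 transporters 4 fell, with Slc7a5 (15506 to 9937) and the cystine carrier gene Slc7a11 (4402 to 3136). Among the 10 remaining members Chac1, Trib3 and Cebpg fell, Ddit3, the Chop gene, rose from 1642 to 2116, and Atf4 itself was not called (19969 and 17548). Of 20 aminoacyl-tRNA synthetases 6 fell, all between -0.38 and -0.27. The unfolded protein response, which shares Ddit3 as a target, had 1 of 15 genes higher, Calr (6.67% against 7.71% of all genes), and none lower.

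Myc (chr15:61985341-61990361), the oncogene named in the study's title, had means of 3099 untreated and 2723 with Nutlin-3, an effect of -0.19 with an adjusted p of 0.230 in the authors' deposited table, so no change was called. In its network 1 of 10 listed genes changed, Mxd3, a repressor gene expressed in dividing cells, which fell (249 to 110). That count is near the 7.03% of all genes that fell. Ribosome assembly genes, a well-known group of Myc targets, fell in 2 of 29 cases (6.9% against 7.03% of all genes), Dkc1 (2005 to 1368) and Nop58, and 27 were not called, with Npm1 at 37649 and 34550. Whether called or not, 24 of the 29 had a smaller mean with Nutlin-3. Their median effect was small, at -0.11, where that of all genes was 0.03. The respiratory chain had 1 of 25 genes higher (4.0%), below the 7.71% of all genes. Glycolysis and hypoxia genes fell in 5 of 21 cases, the lactate exporter gene Slc16a3 (3686 to 2505), Egln3, Pdk1, Pfkp and Bnip3.

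The signalling lists are small, and their counts are to be read against the 7.71% of all genes that were higher and the 7.03% that were lower. The EGF receptor gene Egfr (2315 to 3450) and the ErbB3 and ErbB4 ligand gene Nrg1 (493 to 831) rose, 2 of 13 ErbB receptors and ligands (15.4%). Of 15 MAPK feedback genes 1 fell, Spred1 (6.67%), a share near that of all genes. Notch genes rose in 4 of 9 cases: Notch3 (154 to 359), Hes1 (171 to 329), Jag1 (483 to 823) and Notch1 (1511 to 2196). In the IGF axis Irs1 (1807 to 3002) and Igf1 (2374 to 3426) rose and Igfbp6 fell. Immediate early genes rose in 3 of 16 cases (18.8%), with Egr2 (836 to 1854) ahead of Junb and Fosb. The cytokine genes Lif (521 to 1078) and Csf1, the macrophage growth factor gene (28392 to 39430), rose, 2 of 19 inflammatory and secreted factors (10.5%). Of 13 glutathione and Nrf2 genes Hmox1 (7144 to 12769) and Gss rose (15.4%). No interferon response gene of 33 passed the authors' DESeq2 test with adjustment, and 1 had an unadjusted p below 0.05. None of 10 listed MHC class I, peptide processing and related genes passed it either, with 3 at an unadjusted p below 0.05, but the list left out Tap1, a peptide transporter gene counted among the p53 targets, which rose from 1000.4 to 1299, and the class II gene H2-DMa, which also rose. Fibroblast markers went both ways, with Dpt (10183 to 18006) and Fbln2 higher and Pdgfra (42285 to 31453) and Col6a3 lower, the adipocyte lipid carrier gene Fabp4 fell (21696 to 15187), and in the list of mammary stem cell genes Itga6 fell (10957 to 7510) and Lrp5 rose.

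Next, the changes were set beside those of Trp53 knockout against wild-type spheres, a comparison that shares no library with this one. There 22.3% of listed genes were higher and 23.6% lower by the same limit. The knockout was labelled by genotype, and Trp53 had means of 4207 in wild-type and 2998 in knockout spheres; which part of the gene the knockout removes is not stated by the labels, so its level is no full check of them. Knockout and wild-type spheres also differed in passage and in the empty vector, which cannot be told apart from the genotype. Of the 1003 genes that rose with Nutlin-3 and were in both tables, 549 were lower in the knockout (54.7%) and 63 higher (6.28%), where 21.6% of all 12892 shared genes were lower. Of the 917 that fell with Nutlin-3, 602 were higher in the knockout (65.6%) and 51 lower (5.56%), where 23.5% of all shared genes were higher. Read the other way, genes that rose with Nutlin-3 made up 19.8% of the 2779 lower in the knockout, and genes that fell made up 19.8% of the 3034 higher there. Across the 12892 genes, which share libraries and are not replicates, Pearson's r of the effects was -0.38 and Spearman's rho -0.38.

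Of the p53 targets, 30 of the 39 called p53 targets were called the opposite way and none the same way. Mdm2 was -2.50, Cdkn1a -3.25 and Ptprv -7.85 in the knockout, Fas was -0.80, and Bbc3 (-0.07) and Aldh4a1 (-0.12) were not called there. Polh, which fell with Nutlin-3, was higher in the knockout (1.48). Of the 105 mitosis genes that fell 102 were higher in the knockout, and of the 46 replication genes 44. Of the 34 lysosome genes that rose, 21 were lower in the knockout, among them Ctsd (-1.46) and Glb1 (-1.86), and 1, Manba, was higher. Of the 7 sterol efflux genes 6 were lower there. Macrophage markers were lower in the knockout in 13 of 15 cases, for example Lyz2 at -7.21, so they differed between the groups of that table too. Of the 17 called stress response genes 3 were called the opposite way and 1 the same way, with Asns at -0.08 and Phgdh at -0.01 in the knockout. Myc was higher in the knockout, with an effect of 0.75 and an adjusted p of 1.9e-10 in the authors' deposited table.

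Taking the smaller of the 2 effects as the measure, the 10 strongest genes higher with Nutlin-3 and lower in the knockout were Svop, Ccl8, Inpp5d, Ces2e, Perp, Gsta3, Icam1, Mmp15, Ptprv and Robo3. Svop, a gene related to a synaptic vesicle protein, went from 16.1 to 182 with Nutlin-3 and from 22.5 in wild-type to 1.02 in knockout spheres. The chemokine gene Ccl8 went from 216 to 1178 and from 4324 to 188, and the leukocyte adhesion gene Icam1 from 158 to 661 and from 3741 to 371. In the opposite direction the 10 strongest were Cdc25c, Kif14, Sapcd2, Pif1, Cep55, Aspm, Nuf2, Mki67, Casc5 and Ska1. Mki67, for instance, went from 10352 to 3897 with Nutlin-3 and from 3443 in wild-type to 13730 in knockout spheres.

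**Figure D5:**
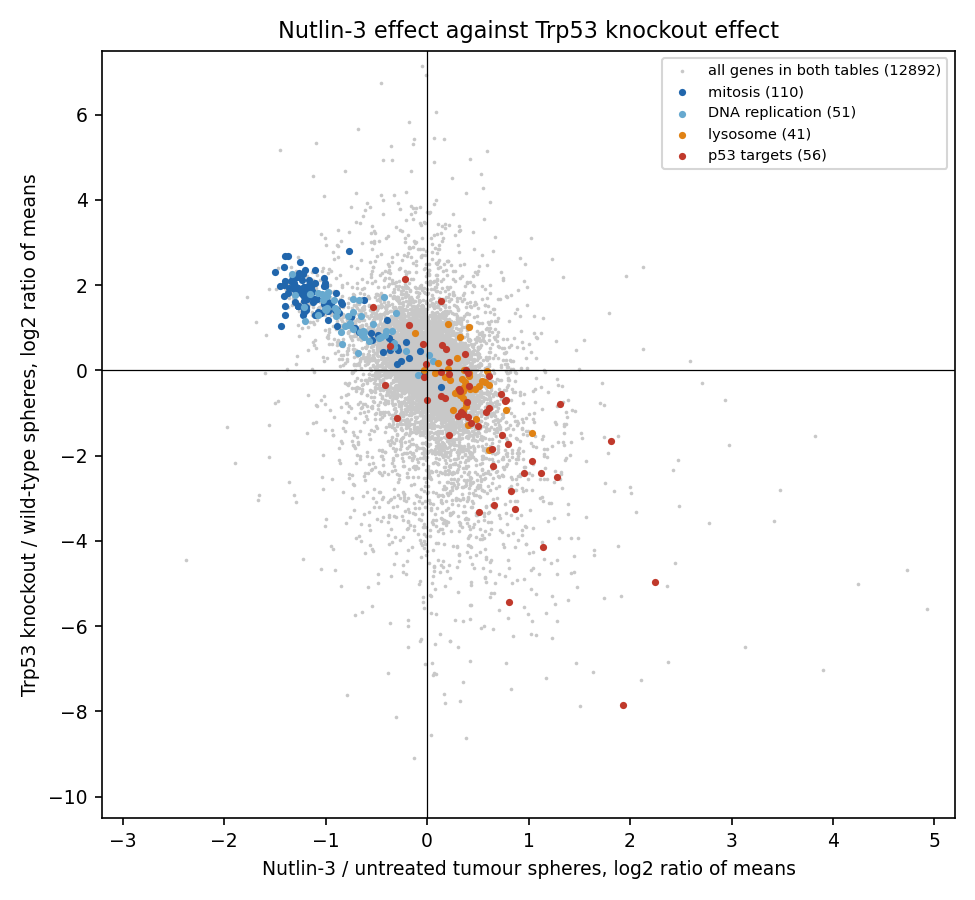
Effect of Nutlin-3 (x axis) against effect of the Trp53 knockout (y axis), both as log2 ratios of group means plus 1, for 12892 genes in both tables, 3 of which lie outside the axes. Mitosis and replication genes fill the upper left and most p53 targets the lower right, and the lysosome genes lie nearer to 0 on the x axis, with Ctsd at 1.04.

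Spheres with Myc-ER against wild-type spheres also share no library with the Nutlin-3 comparison, although they share the wild-type group with the knockout. With 26.7% of listed genes higher and 24.1% lower in that table, 575 of 1001 genes that rose with Nutlin-3 were lower with Myc-ER (57.4%) and 113 higher (11.3%), and 611 of 913 that fell were higher (66.9%) and 52 lower (5.70%). The p53 targets went against that pattern: of the 37 that rose with Nutlin-3, 20 were also higher with Myc-ER and 3 were lower. Mdm2 was 1.27, Trp53inp1 0.94, Fas 0.90 and Ptprv 0.66 with Myc-ER, and Cdkn1a, at 0.16, was not called. Of the 105 mitosis genes that fell, 92 were higher with Myc-ER and none was lower, and of the 34 lysosome genes that rose, 32 were lower and none was higher. The table of untreated tumour against wild-type spheres shares untreated libraries with the Nutlin-3 table, so the values are only set side by side: Mdm2 was -0.69 in tumour against wild-type and 1.28 with Nutlin-3, Cdkn1a -0.79 and 0.87, Mki67 1.79 and -1.41, Abca1 -1.58 and 1.74, and Ctsd 0.09 and 1.04.

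Some large differences between means were not called. Among uncalled genes with a mean of at least 100 over both groups, the 6 with the largest effects were Cd74, H2-Ab1, Slc5a7, Igfbp5, Tacr1 and Npy. Cd74, the invariant chain gene of MHC class II, had means of 1.31 and 268, and H2-Ab1 of 36.6 and 417. Igfbp5 had means of 1280 and 4448 and an adjusted p of 0.243 in the authors' deposited table. For Tacr1 the ratio of means was above 0 (1.78) and the authors' mean of paired log2 fold changes below 0 (-0.13), so the measures differ in sign.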

How the data were processed

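Libraries of polyadenylated RNA from mouse mammospheres were made with an Illumina TruSeq kit, per the labels' protocols. The submitters' processing notes name DESeq2 1.10.1, HTSeq 0.5.3p9, TopHat2 2.0.8, Bowtie2 2.1.0, CASAVA 1.9 and SAMtools 0.1.18, and the build mm10. No source used here states whether reads were counted by strand, so overlapping genes may not be told apart.

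The authors' deposited tables hold, per the file headers, a signal for each gene and group, the mean normalised read count over the group's libraries. They list only genes with a mean above 10. In the Nutlin-3 table the deposited log2 fold change is, per its header, a mean over pairs of cultures from the same tumour. The deposited p-value and adjusted p-value are from the authors' DESeq2 test, and adjusting those p-values anew by Benjamini-Hochberg gave the deposited adjusted p to within 9.2e-07. Each table was normalised separately, so only effects are compared across tables. The knockout table has 3 entries that name no gene, which were left out.

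With no value per library, no test was run on samples, no standard error could be had, and the depth of each library is unknown. No measure of spread is given for the replicates, called biological in the headers. A gap between the ratio of means and the deposited paired fold change can reflect it, as for Cd74 (6.86 and 3.39). Genes were called at an adjusted p below 0.05, with the direction from the ratio of means (pseudocount 1). The arithmetic of the adjustment and the direction of calls were checked on simulated means with p-values set in advance. That check says nothing of how well the authors' test calls genes. Python 3.11.15 with numpy 2.4.6 and pandas 2.3.3 was used.

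The members and the 43 gene lists (3 to 110 genes) were chosen with earlier results of these data known. Of their 892 genes 812 were listed. The text names 6 fixed genes (Trp53, Mdm2, Mdm4, Cdkn1a, Myc, Erbb2), the 12 largest increases and decreases among called genes at or above the median mean, per list subgroup up to 4 called members with the largest effect, up to 3 going the other way and the uncalled member with the highest mean, the 10 strongest opposite calls in each direction, and 6 uncalled genes. Other genes named from a list were chosen after their values were seen. Alternatives were pseudocounts of 0 and 10, the authors' fold change for the direction, adjusted p limits of 0.01 and 0.10, a minimum mean of 100 with the adjustment redone, and an added 1.5-fold limit. Promoters and coordinates are from RefSeq, GRCm38.p6, and 94.6% of symbols matched its gene table.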

Additional observations from a re-analysis of the deposited data

How the results depend on the processing

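No paired analysis was possible because the table holds only group means, and the authors' own test already paired cultures by tumour. For the same reason no library could be left out. The counts of genes higher and lower, of p53 targets higher, of mitosis and DNA replication genes lower and of opposite calls in the knockout stayed within 1.5 times of the reported values with pseudocounts of 0 and 10, with the authors' fold change for the direction, with an adjusted p limit of 0.10 and with a minimum mean of 100. With an adjusted p limit of 0.01, 640 genes were higher against 1005. With an added 1.5-fold limit 260 genes were higher and 423 lower, 22 p53 targets were higher against 37, and 491 genes had opposite calls in the knockout against 1151, since most called changes were smaller than that. Under that limit lysosome genes higher went from 34 to 5 and stress response genes lower from 16 to 3, while mitosis genes lower stayed at 93 of 105. Autophagy genes higher went from 7 to 0, aminoacyl-tRNA synthetases lower from 6 to 0, and glycolysis and hypoxia genes lower from 5 to 0. No called gene changed sign between the ratio of means and the authors' fold change, but 731 of 11116 uncalled genes did. The gap between both measures was over 0.25 for 56 called genes.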

Other observations

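All 15 listed clustered histone genes had a larger mean with Nutlin-3 (median effect 1.14), and 5 of them rose: Hist1h2bc (502 to 1228), Hist1h4i (64.6 to 171), Hist2h3c1 (166 to 366), Hist3h2a (344 to 627) and the linker histone gene Hist1h1c (767 to 1123). None fell, where 7.71% of all genes rose and 7.03% fell. Many of the uncalled members had low untreated means, down to 7.30 for Hist1h1e, and they enter that median. By the authors' deposited paired log2 fold change all 15 were also above 0, with a smaller median of 0.74, and the measures differed by over 0.25 for 6 of them, such as Hist1h2be (1.16 and 0.14) and Hist1h4h (1.72 and 0.48). Clustered histone messages normally end in a stem-loop without a poly(A) tail, and the near-identical members of these families may share reads. Among 11 histone variant genes, which carry introns or poly(A) signals, 5 fell, against 7.03% of all genes, led by H1fx (161 to 70.6) and H2afz (14117 to 7637). H2afj (1809 to 2571) was the 1 that rose, against 7.71% of all genes. These groups were formed after their values were seen.

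Of 20 listed chemokine genes 3 rose, namely Ccl8, Ccl11 (771 to 2062) and Ccl7 (4446 to 7358), and none fell, where 7.71% of all genes rose. The adhesion genes Icam1 and Vcam1 (1862 to 2548) rose too. Ccl11 was -3.93 and Vcam1 3.24 in the knockout comparison. The 8 listed genes of MHC class II all had larger means with Nutlin-3. Only 1 was called, H2-DMa (181 to 274), where 7.71% of all genes were called higher.

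The ratio of means and the authors' deposited paired fold change differed by over 0.25 for 10 of 33 interferon response genes and for 8 of 15 macrophage markers, and for 0 of 110 mitosis genes. The median gap was 0.14, 0.26 and 0.01 in these lists and 0.015 over all genes. Of the macrophage markers 6 had an untreated mean below 10, and none of the interferon response or mitosis genes did. How far the gap follows the level of a gene was not tested. Isg15 was -0.88 by the ratio and -0.17 in the authors' deposited table, and Oas3 -1.78 and -1.13.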
